A study of Nematostella vectensis with 136 samples.

Results

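The 24 libraries described here come from whole adult starlet sea anemones, *Nematostella vectensis*, of the light-cycled arm on the first day of sampling. They are 24 of 136 libraries in all, chosen by the arm and time point in their labels: 12 from time points T1 to T3, taken 0, 4 and 8 h after the start of sampling, and 12 from T4 to T6, taken 12, 16 and 20 h after it, with 4 replicates, A to D, at each. Animals of this arm had lived under a light:dark cycle (LD) for 1 month and were still under it at T1 to T6. The 24 libraries of animals kept in constant darkness (dark:dark, DD) for the same month and sampled at the same hours served as the control for elapsed time, with 12 in each part of the day. All animals were adults, and no other treatment or genotype is given. The labels give neither clock times nor the hours of light and dark, so the parts of the day are named by their time points only. They do not say whether a replicate was a single animal or several, or whether replicates came from separate cultures, so every p-value below measures spread among the libraries themselves, which may be partly technical.

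*Nematostella* is a burrowing cnidarian, from the sister lineage of the bilaterian animals. It has no eyes, yet it moves and feeds on a daily schedule that follows the light. Like other cnidarians it carries relatives of the Clock, Cycle and cryptochrome genes of the animal circadian clock, in which transcription factors drive genes whose products hold them back, while light sets the phase. A gene that follows the light directly and a gene driven by such a clock can both show a daily profile under a light cycle, and 1 day of samples does not tell them apart. The table's gene identifiers are not paired with names in the files, and the gene table of the organism's RefSeq assembly matched 0 of them, so genes are given by identifier, with no role, position or sequence.

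Total counts of the LD libraries ran from 287119 to 688187 over T1 to T3 (median 598356) and from 412850 to 594307 over T4 to T6 (median 490669). Among the DD libraries 2 were shallow, with totals of 140371 (T1, replicate D) and 2185 (T4, replicate B), and they are left out of the values given below, though not of the fit. All 48 libraries were sequenced on lane 5, so no lane separates the parts of the day. Libraries of the same arm and time point differed beyond sampling noise in all 66 pairs of sufficiently deep ones, the lowest chi-square divided by its degrees of freedom being 3.12. Some libraries stood apart through a group of 131 genes that rise together, called programme A here, whose score averages log2 CPM over those genes (CPM are counts scaled by library size). The score had a median of 2.40 over all libraries, and on the first day it passed the midpoint of its range, 4.96, in 3 libraries: LD T6 replicate B (7.34), DD T5 replicate B (5.51) and LD T6 replicate A (5.32).

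Between T1 to T3 and T4 to T6, 7 of 10257 tested genes changed in LD, 0.0682% of those tested. Of these, 2 were higher over T4 to T6 (0.0195%), NVE8107 and NVE4116, and 5 were lower (0.0487%), NVE14677, NVE8679, NVE8085, NVE5408 and NVE1728. NVE5408, NVE8085 and NVE1728 are named because so few genes were called, after their values were seen. The comparison was the mean of the fitted levels at T4, T5 and T6 minus that at T1, T2 and T3, tested with edgeR's quasi-likelihood test and called at a Benjamini-Hochberg adjusted p below 0.05. In whole animals, fewer cells of a type and less RNA per cell cannot be told apart, so each change below is one of RNA in the animal. By their time-point means the genes fell into 3 kinds of profile. The means of NVE8107, NVE14677, NVE8679, NVE5408 and, with wider scatter, NVE8085 made a step between T3 and T4. NVE1728 declined more slowly, and the division of the day cut across the profile of NVE4116. Of the steps between T3 and T4, only that of NVE8107 was called in a test of its own.

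NVE8107 was the clearest riser. Its level in LD lay between 1.38 and 11.4 CPM over T1 to T3 (median 5.59, n = 12) and between 24.3 and 102.4 CPM over T4 to T6 (median 42.3, n = 12). Every library of T4 to T6 was above every library of T1 to T3. Counts behind these values were low in the first part of the day, at 1 to 7 reads a library, and 12 to 41 in the second. By time point the means were 6.51 ± 4.36, 4.22 ± 3.44 and 7.62 ± 2.57 CPM at T1, T2 and T3, then 37.1 ± 9.10, 71.7 ± 23.9 and 37.4 ± 5.41 CPM at T4, T5 and T6 (SD, n = 4). The gene was thus low through T3, up at T4 and highest at T5. The fitted difference was 2.97 ± 0.27 on the log2 scale (SE), a 7.83-fold rise, with an edgeR adjusted p of 1.63e-15. It was called in all 23 of its alternative analyses.

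DD libraries held NVE8107 at a level between the 2 LD parts of the day. They ranged from 8.01 to 20.7 CPM over T1 to T3 (median 15.0, n = 11) and from 5.19 to 33.5 CPM over T4 to T6 (median 16.7, n = 11). The DD libraries of the 2 parts overlapped. Of the 12 LD libraries of T1 to T3, 5 were below the lowest DD library of the day, and of the 12 of T4 to T6, 10 were above the highest. The other 7 of the first part lay within the DD range, and levels of the arms were not tested against each other.

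NVE14677, NVE8679 and NVE5408 went the other way at the same point of the day. NVE14677 stood between 75.8 and 250.1 CPM over T1 to T3 (median 142.9) and between 12.1 and 57.0 CPM over T4 to T6 (median 26.4), with no overlap. Its time-point means went down gently within the first part, from 188.9 ± 65.2 through 142.2 ± 34.3 to 116.2 ± 31.6 CPM, and then stood at 25.6 ± 9.17, 26.4 ± 8.70 and 35.2 ± 20.02 CPM (SD, n = 4). The fitted fall was the largest of the 5, -2.34 ± 0.39 on the log2 scale, 5.06-fold (edgeR adjusted p = 5.12e-05).

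NVE8679 ranged from 62.6 to 138.2 CPM over T1 to T3 (median 124.7) and from 15.0 to 42.7 CPM over T4 to T6 (median 32.5). Its libraries did not overlap either. At T1 and T2 the replicates were close, at 123.3 ± 10.6 and 125.8 ± 8.70 CPM, and the gene was at 105.8 ± 32.5 CPM at T3 and 34.8 ± 7.17 CPM at T4 (SD, n = 4). It fell by 2.00 ± 0.29 on the log2 scale, 4.00-fold (edgeR adjusted p = 1.31e-06).

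NVE5408 ranged from 196.2 to 501.7 CPM over T1 to T3 (median 370.7) and from 86.2 to 151.9 CPM over T4 to T6 (median 105.6). Again all libraries of T1 to T3 were above all of T4 to T6. Its mean was 395.7 ± 40.4 CPM at T2, 279.4 ± 63.5 at T3 and 93.2 ± 10.9 at T4, followed by 120.9 ± 25.9 and 113.3 ± 16.8 CPM at T5 and T6 (SD, n = 4). The fitted change was -1.73 ± 0.24 on the log2 scale, 3.32-fold (edgeR adjusted p = 2.37e-07). NVE14677, NVE8679 and NVE5408 were called in 23 of 23, 24 of 24 and 24 of 24 alternatives.

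In the second part of the day these 3 genes came down to the range of the DD libraries. Over T1 to T3 all 12 LD libraries were above the highest DD library of the day in each of the 3 genes, and over T4 to T6 none was. The DD libraries ran from 0 to 75.2 CPM for NVE14677 (median 11.2), from 3.66 to 59.0 for NVE8679 (median 20.5) and from 43.9 to 188.01 for NVE5408 (median 63.9; n = 22 each). Their levels in DD were broad, in relative terms most of all for NVE14677.

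Complete separation of the 12 early from the 12 late LD libraries was seen in 4 of the 10257 tested genes, 0.039%: NVE8107, NVE14677, NVE8679 and NVE5408. In DD, with 11 libraries in each part, it was seen in 0 genes (0%).

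NVE8085 also fell, with wider scatter and a different relation to DD. It ran from 30.4 to 243.7 CPM in LD over T1 to T3 (median 87.4) and from 5.20 to 84.9 CPM over T4 to T6 (median 25.8). The parts overlapped. Its means were 114.4 ± 39.4, 58.4 ± 19.6 and 154.3 ± 104.1 CPM at T1, T2 and T3, and 33.7 ± 20.5, 41.2 ± 30.9 and 12.3 ± 9.66 CPM at T4, T5 and T6 (SD, n = 4). The fitted fall was -1.96 ± 0.32 on the log2 scale, 3.90-fold (edgeR adjusted p = 3.74e-05), and it was called in 21 of 23 alternatives, with adjusted p-values between 1.25e-08 and 0.124. The call ended without replicate B of every group and without T6. NVE8085 was above the highest DD library, 10.7 CPM (DD median 2.07, n = 22), in 12 of 12 LD libraries over T1 to T3. Over T4 to T6 it was above it in 9 of 12. The exceptions were all at T6, replicates A, B and C, at 10.4, 5.20 and 7.22 CPM, while T6 replicate D was at 26.4 CPM.

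NVE1728 declined from point to point with no step. Its means in LD were 49.4 ± 16.1, 35.1 ± 10.4, 27.1 ± 6.41, 21.9 ± 7.20, 17.5 ± 8.90 and 13.3 ± 7.17 CPM from T1 to T6 (SD, n = 4), with libraries from 17.6 to 71.9 CPM in the first part (median 33.3) and from 4.82 to 32.0 CPM in the second (median 17.3). The parts overlapped. DD means also ended lower, though less evenly, from 50.9 ± 11.1 CPM at T1 (n = 3) to 19.9 ± 6.92 CPM at T6 (n = 4). Between these they were 35.8, 43.3, 36.9 and 30.8 CPM at T2, T3, T4 and T5. The LD change was -1.03 ± 0.24 and the DD change -0.56 ± 0.23 on the log2 scale, the first with an edgeR adjusted p of 0.0437 and the second not called, at an unadjusted p of 0.0151. NVE1728 is the gene where the DD control moved most relative to LD. Its LD call held in 12 of 24 alternatives, with edgeR, DESeq2 or limma adjusted p-values from 0.00604 to 0.64, and ended among others on leaving out any 1 of the 4 replicate letters, or T1, T2, T5 or T6.

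NVE4116 was higher over T4 to T6 on average, though its profile did not follow the division of the day. It was high at T1, at 30.4 ± 11.5 CPM, fell to 7.93 ± 4.61 at T2 and 2.87 ± 0.986 at T3, was at 7.33 ± 4.90 at T4, and was high again at T5 and T6, at 40.8 ± 13.9 and 38.1 ± 6.90 CPM (SD, n = 4). Libraries ranged from 1.47 to 41.6 CPM over T1 to T3 (median 6.95) and from 0 to 59.9 CPM over T4 to T6 (median 32.7), and so overlapped widely. T4 replicate D had no read of this gene, which allows up to 3 counts, while the other 3 libraries of that group had 9.13 to 10.1 CPM. The fitted rise of 1.31 ± 0.30 on the log2 scale, 2.48-fold, passed narrowly (edgeR adjusted p = 0.0378) and was called in 11 of 23 alternatives, with adjusted p-values from 1.36e-07 to 0.823. It ended among others without replicate A, B or C and without T2, T3, T5 or T6. In DD the gene was nearly level, between 8.96 and 16.0 CPM in its 6 time-point means.

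**Figure D1:**
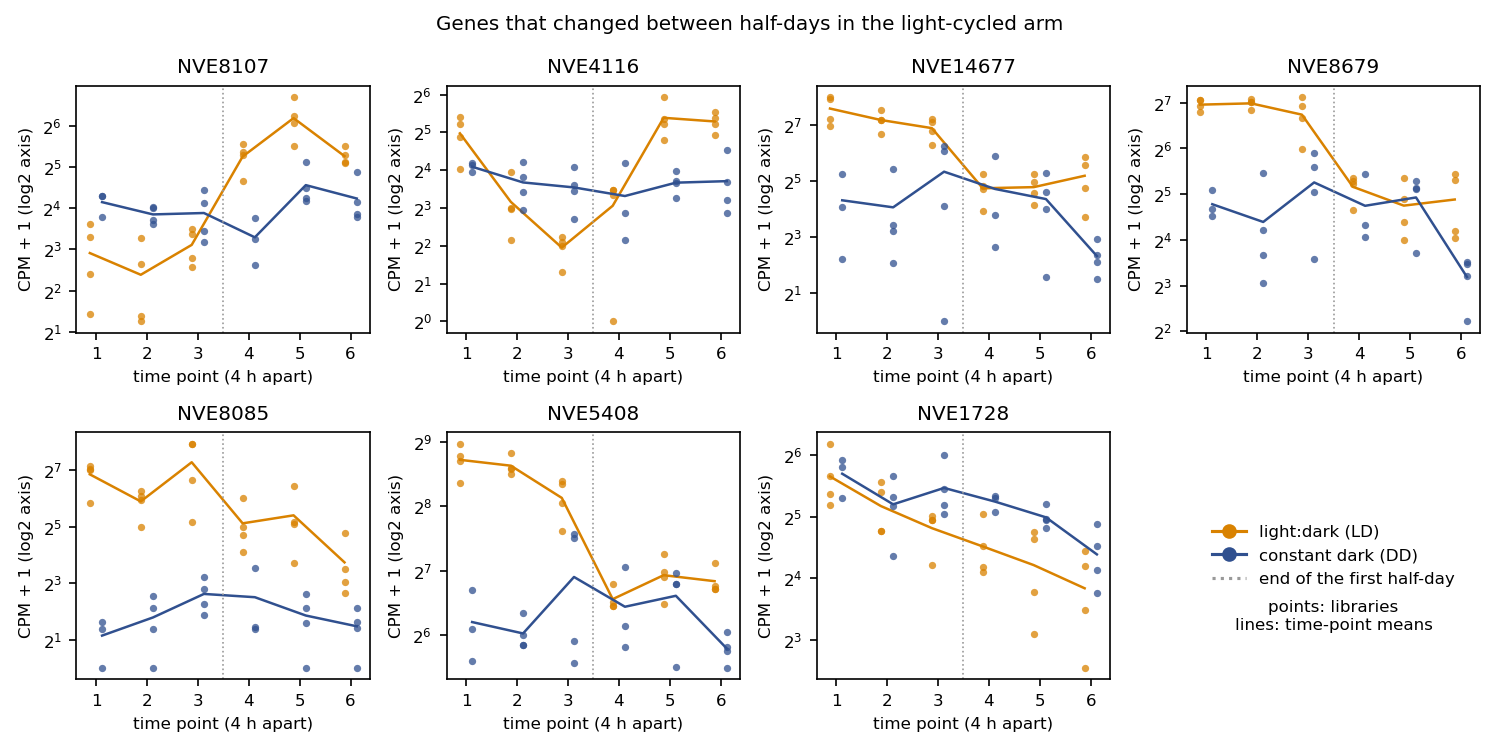
Level of the 7 genes called in LD between T1 to T3 and T4 to T6, as CPM + 1 on a log2 axis, against time point (4 h apart); points are libraries, lines join the means of LD (orange) and DD (blue), shallow libraries are left out, and the dotted line marks the end of T1 to T3. Between T3 and T4 in LD the mean of NVE8107 steps up and those of NVE14677, NVE8679, NVE5408 and NVE8085 step down, only the step of NVE8107 being called. NVE4116 is low at T2 to T4 and high at T1, T5 and T6.

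The same comparison in constant darkness called no gene. DD animals went through the same hours without a light cycle, and edgeR called 0 of 10257 genes (0%), with 371 at an unadjusted p below 0.05, where 817 were in LD and 512.9 would be expected of tests on unchanged genes. DESeq2 called 1 gene in DD and limma-voom 0. For the 7 LD genes the fitted DD changes (log2, later minus earlier, with SE) were 0.04 ± 0.29 for NVE8107, -0.24 ± 0.30 for NVE4116, -0.89 ± 0.51 for NVE14677, -0.55 ± 0.35 for NVE8679, -0.14 ± 0.64 for NVE8085, -0.22 ± 0.25 for NVE5408 and -0.56 ± 0.23 for NVE1728. Of the 7, 6 had the sign they had in LD. All 7 changes were smaller than in LD, on whose change the genes had been chosen. The signs in DD of NVE8107, NVE8085, NVE5408 and NVE8679 turned in some alternatives.

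A test of the difference between the arms was passed by 1 gene, NVE8107 (0.00975% of those tested). The difference, LD change minus DD change, was 2.93 ± 0.39 on the log2 scale (edgeR adjusted p = 1.42e-07), and it passed in all 23 alternatives, with adjusted p-values from 3.87e-08 to 0.00391. The other 6 did not pass, so a change confined to LD is not shown for them. Their differences, LD minus DD with the 95% interval, were -1.51 (-2.19 to -0.84) for NVE5408, 1.56 (0.72 to 2.39) for NVE4116, -1.83 (-3.35 to -0.30) for NVE8085, -1.45 (-2.36 to -0.54) for NVE8679, -1.45 (-2.78 to -0.11) for NVE14677 and -0.47 (-1.11 to 0.18) for NVE1728. These intervals are not adjusted for the number of genes. Nor do they allow for the choice of the genes on their LD change, which is part of each difference and may enlarge it. NVE5408 was nearest to a call, with an edgeR adjusted p of 0.112, and passed in 4 of 24 alternatives, the fit without the 2 shallow DD libraries and LD T14 replicate D among them (adjusted p = 0.0322, in a range of 0.00833 to 1). NVE4116 passed in 2 of 23 alternatives, in a range of 0.00525 to 1.

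**Figure D2:**
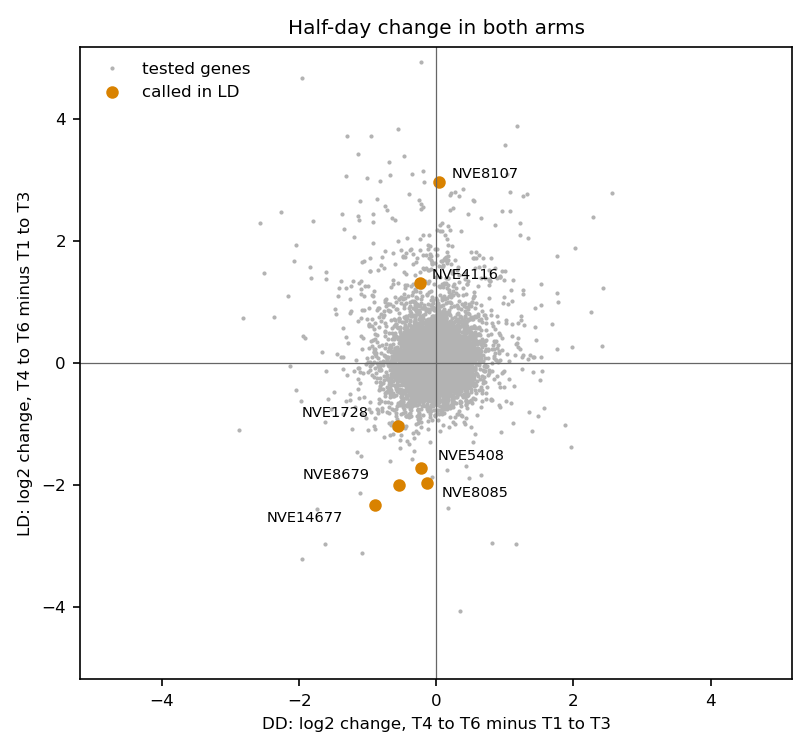
Fitted log2 change from T1 to T3 to T4 to T6 in DD (horizontal) and LD (vertical) for the 10257 tested genes (grey), with the 7 genes called in LD in orange. NVE8107 lies at 2.97 in LD and 0.04 in DD, and the LD cloud is taller above 0 than below.

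Across all tested genes the LD changes were spread more widely than the DD changes, mostly upward. The SD of the fitted log2 change was 0.454 in LD and 0.330 in DD, around medians of 0.02 and -0.01. More than 1 log2 unit separated the parts of the day in 379 genes in LD (3.70%), 319 of them higher over T4 to T6, and in 1.69% in DD, with 73 genes higher and 100 lower. Of these lists 73 genes were shared, 19.3% of the LD list and 42.2% of the DD list. Of the 379, 90 belonged to programme A and 25 to programme B, a second such group. Programme A has 131 and programme B 27 of the 10257 tested genes. Both programmes were drawn from the 400 genes most variable over libraries that include these ones. Their share among genes with large changes is therefore partly built in. The DD list held 16 genes of programme A and 10 of programme B. The programme A score was between 2.34 and 4.24 over LD T1 to T3 (median 2.45, n = 12) and between 2.32 and 7.34 over T4 to T6 (median 2.44, n = 12). The programme B score was between 2.46 and 7.00 (median 2.68) and between 2.47 and 7.62 (median 2.79), with LD T5 replicates C and D and LD T6 replicate D above 7 in the second part. With both scores as covariates the SD was 0.341 in LD and 0.333 in DD, the scores coming from the same counts. Across genes the LD and DD changes had a Pearson r of 0.0442 and a Spearman rho of 0.101 (10257 genes, which share libraries and are not independent replicates).

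None of the 7 genes belonged to either programme. Over the 24 LD libraries their log2 CPM had correlations with the programme A score between -0.433 (NVE8679) and 0.311 (NVE4116), given as descriptions. With every library past the programme A midpoint removed, LD T6 replicates A and B among them, all 7 were still called, as part of 12 genes. With the programme scores as covariates 6 were called and NVE1728 was not (edgeR adjusted p = 0.0799).

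In any shape over the 6 points, 1.52% of tested genes differed in LD, 76 genes of programme A and 80 others, and 3 genes in DD (0.0292%), in a test with 5 degrees of freedom. The LD count rested largely on a few libraries. Of these LD genes 128 were highest at T6, and in 125 (80.1%) the highest of all 24 LD libraries was T6 replicate B, against 13.9% of all tested genes. In 124 of them (79.5%) the level had a correlation above 0.5 with the programme A score over the 24 libraries, against 8.04% of all tested genes. The 76 genes of programme A enter that score themselves, so for them the correlation is partly built in. The 80 others were not counted apart. Without LD T6 replicate B, 12 genes were called, all of them among those called with it, with 0 of programme A and 6 of the 7 genes described above. Without replicate D of every group 15 were called, and without A or C, 46 or 47. The genes not highest at T6 were highest at T5 (14 genes), T1 (6), T3 (5), T4 (2) and T2 (1).

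The 4 genes with the largest span over the time points were high in few libraries. NVE12125, of programme A, stood at 1332 CPM in LD T6 replicate B, 418.6 in T6 replicate A, 209.3 in T1 replicate B and 159.8 in T5 replicate A, and under 34 in every other LD library of the day. NVE2106 and NVE11188 had the same highest library, with 450.8 and 419.6 CPM in LD T6 replicate B and 72.6 CPM each in T6 replicate A. In DD these 3 genes were high in T5 replicate B, at 348.4, 121.2 and 107.6 CPM, and in T3 replicate A, at 157.9, 63.9 and 47.0 CPM. NVE12125 was also at 114.1 CPM in DD T3 replicate B. NVE12713 was seen in a different library, with 343 counts (1298 CPM) in LD T1 replicate D and at most 3 counts in any other LD library of the day. T1 replicate D also had a programme B score of 7.00. In these 4 genes a single library held most of the signal, so no fold change is given. edgeR's adjusted p-values of 0.011 (NVE12713), 0.0161 (NVE12125), 0.0277 (NVE2106) and 0.0424 (NVE11188) each ended in some alternatives, with highest values of 1, 0.939, 1 and 1.

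**Figure D3:**
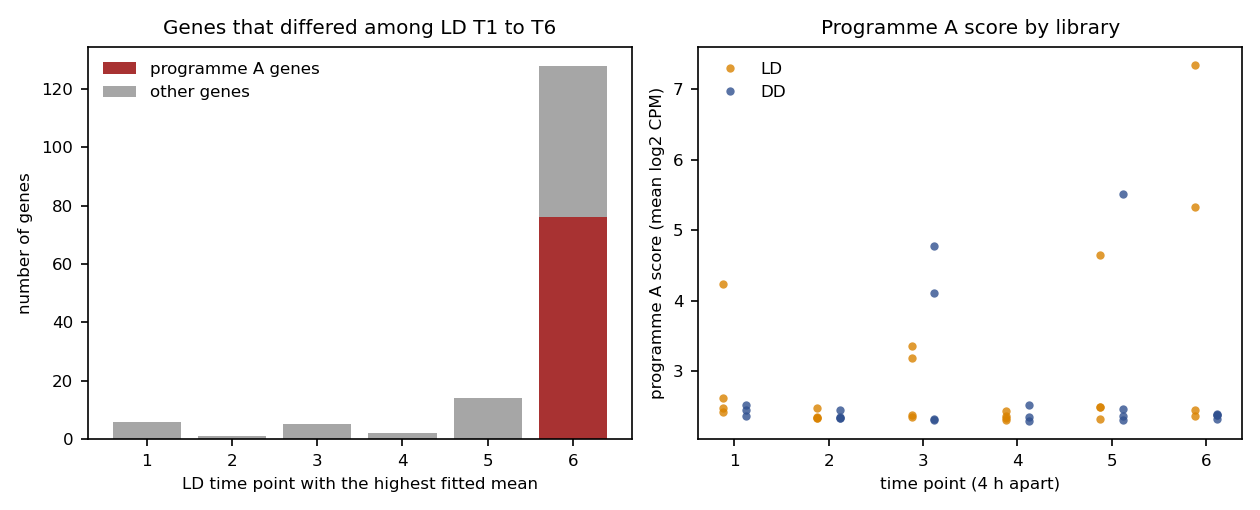
Left, the genes that differed among LD T1 to T6, counted by the LD time point with their highest fitted mean and divided into genes of programme A and others; right, the programme A score (mean log2 CPM) of each library, shallow libraries left out. T6 holds 128 of these genes, and the highest scores at T6 are those of replicates B (7.34) and A (5.32).

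Within the parts of the day more LD genes had a low unadjusted p late than early, with as many called in each. Tests on unchanged genes would give 512.9 below 0.05 in either part. Among T1, T2 and T3 alone, 288 genes (2.81%) had an unadjusted p below 0.05, and among T4, T5 and T6 alone 1236 did (12.1%), with 1 gene called in each (0.00975%), NVE4116 both times (edgeR adjusted p = 0.000181 and 0.0231). LD T6 replicates A and B, with their high programme A scores, are in the later part. The count within T4 to T6 was 651 without T6 replicate B, 799 without all libraries past the programme A midpoint and 588 with the programme scores as covariates. The last is near the 512.9 expected, and the counts within T1 to T3 were not set beside these. For the other 6 genes the adjusted p-values within a part were at least 0.236. Between neighbouring time points 2 genes were called in all. NVE8107 rose from T3 to T4 by 2.25 ± 0.44 on the log2 scale (edgeR adjusted p = 0.0178), and NVE4116 rose from T4 to T5 by 2.44 ± 0.48 (edgeR adjusted p = 0.0169), each the single call of its step (0.00975%). The call of NVE8107 held in 8 of 16 alternatives, with adjusted p-values from 0.00279 to 0.968, and ended with DESeq2, other scalings, no filter or the loss of any 1 of the 4 replicate letters. That of NVE4116 held in 13 of 16 (0.00425 to 0.4) and ended without replicate A, C or D. The steps from T1 to T2, T2 to T3 and T5 to T6 had 0 calls (0%). The falls of NVE14677, NVE8679, NVE8085 and NVE5408 from T3 to T4 were -2.17 ± 0.68, -1.60 ± 0.49, -2.18 ± 0.53 and -1.58 ± 0.41, none past the threshold with 4 libraries against 4.

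A difference between the arms in the shape of the 6-point profile was passed by 2 genes (0.0195%), NVE8107 and NVE4116, with edgeR adjusted p-values of 3.46e-05 and 0.0414. NVE8107 passed in 15 of 16 alternatives (2.57e-06 to 0.238) and NVE4116 in 5 of 16 (0.00663 to 0.933). The genes that differed in DD over the 6 points were others. NVE10468 and NVE19960 were highest in DD at T6, at 683.8 ± 311.9 and 416.4 ± 217.8 CPM, and at T1 were at 28.9 ± 8.35 and 26.9 ± 6.30 CPM (SD, n = 4 and 3). Their DD means were also high at T2 (257.5 and 222.6 CPM) and T5 (277.9 and 210.99 CPM), and low at T3 (39.1 and 50.1 CPM). Their LD means at T6 were 82.9 ± 74.5 and 65.1 ± 36.0 CPM, and the profile difference between the arms did not pass (edgeR adjusted p = 1.00 and 0.998). Both DD calls ended without replicate A, B or C and with only the T1 to T6 libraries fitted. That of NVE19960 also ended with limma-voom (adjusted p = 0.0578). NVE14725 was at 258.5 CPM in 1 library of DD T2 and at 0 in all 4 of T5. Its DD call ended with DESeq2 (adjusted p = 0.436) and with limma-voom. Adjusted p-values in DD (edgeR) were 0.0031, 0.00306 and 0.00171, and 0 of the 3 genes were among those called in LD.

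NVE14677, NVE8679 and NVE5408 moved together also where there was no light cycle. The DD and later libraries entered the same fit, though not the contrast that called the genes. Over the 22 DD libraries of T1 to T6, NVE14677 and NVE5408 had a Pearson r of 0.906 and a Spearman rho of 0.904 (permutation p = 1e-05 for each, the smallest that 100000 permutations can give, 7e-05 after Benjamini-Hochberg adjustment over 63 relations). NVE14677 and NVE8679 had an r of 0.822 and a rho of 0.819 (permutation p = 1e-05 for each, adjusted 7e-05). NVE5408 and NVE8679 had an r of 0.764 (permutation p = 6e-05, adjusted 0.000344) and a rho of 0.754 (permutation p = 8e-05, adjusted 0.000458). A DD library high in 1 of the 3 genes was thus as a rule high in the others. Leaving out the 2 libraries farthest from the median of the first gene gave an r of 0.868, 0.768 and 0.687, and deviations from the time-point means had an r of 0.911, 0.803 and 0.721. The largest gap between neighbouring libraries was 0.44, 0.60 and 0.56 log2 units for NVE5408, NVE14677 and NVE8679, in ranges of 5.58 to 7.59, 2.00 to 6.31 and 2.94 to 5.98, so the libraries were not treated as separate clusters.

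Among all 10256 other tested genes, NVE5408 was the one with the highest correlation with NVE14677 over these DD libraries, and NVE8679 had rank 2. For NVE8679 the highest was NVE14677, and NVE5408 had rank 4. Over the 44 DD libraries of T7 to T17 the same 3 pairs had an r of 0.790, 0.716 and 0.752, with rho of 0.824, 0.740 and 0.773 (permutation p = 1e-05 for each, adjusted 7e-05). Leaving out the 2 farthest libraries gave 0.798, 0.753 and 0.775, and deviations from the time-point means 0.814, 0.815 and 0.812. In both arms the last of these time points were sequenced on another lane, and the permutations ran across lanes and time points. In LD after the cycle was taken away, over 43 libraries of T7 to T17, r was 0.673, 0.663 and 0.621 and rho 0.668, 0.735 and 0.668 (permutation p from 1e-05 to 2e-05, adjusted at most 0.000126), and 0.632, 0.637 and 0.614 without the 2 farthest. Deviations from the time-point means of these LD libraries had an r of 0.743, 0.685 and 0.577. In LD at T1 to T6 the deviations from the time-point means had lower correlations, 0.429, 0.387 and 0.259 (n = 24, as a description). Those of NVE8085 with NVE14677, NVE5408 and NVE8679 were of like size there, 0.432, 0.326 and 0.328. Over LD T7 to T17 its r with them was 0.491, 0.652 and 0.497 (adjusted permutation p at most 0.00373). Over DD T1 to T6 it was 0.266, 0.330 and 0.171, and none passed. The points share a library and its scaling, and reads shared between similar genes were not tested.

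NVE8107 rose in LD while those 3 genes fell, and in DD no negative correlation with them passed. Over DD T1 to T6 its r with NVE14677 was 0.0628 and with NVE5408 0.190 (adjusted permutation p = 0.850 and 0.546), and its r with NVE8679 was -0.012 (rho 0.0774, permutation p = 0.958 and 0.732, adjusted 0.997 and 0.803). Over DD T7 to T17 the r with NVE8679 was 0.616 (rho 0.570, permutation p = 1e-05 and 7e-05, adjusted 7e-05 and 0.000441; 0.537 without the 2 farthest), the highest of the 3. With NVE14677 it was 0.492 (rho 0.487, permutation p = 0.00084 and 0.00098, adjusted 0.00378 and 0.00475; 0.601 without the 2 farthest), and with NVE5408 0.413 (rho 0.442, permutation p = 0.00539 and 0.00302, adjusted 0.0212 and 0.0127; 0.485 without the 2 farthest). In all, 3 of 21 pairs of the 7 genes had an adjusted p below 0.05 over DD T1 to T6, 6 over DD T7 to T17 and 8 over LD T7 to T17, and every one of these 17 correlations was positive.

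**Figure D4:**
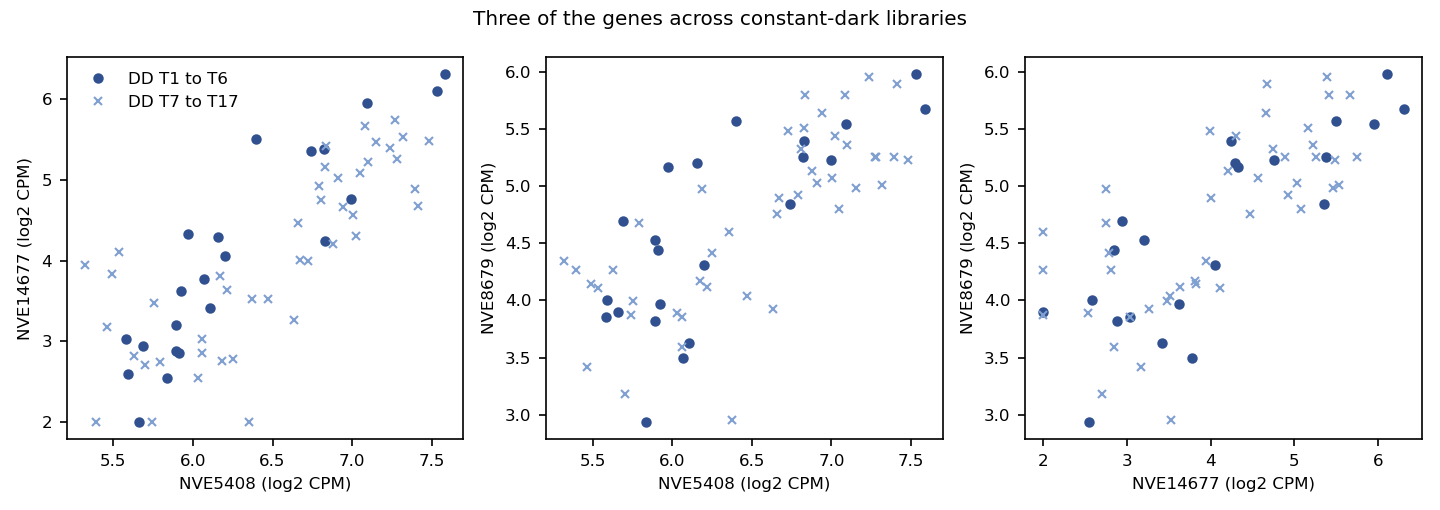
Log2 CPM of NVE5408, NVE14677 and NVE8679 against each other over constant-dark libraries, filled circles for T1 to T6 (n = 22) and crosses for T7 to T17 (n = 44); a value of 2.00 for NVE14677 is a library with no read. Libraries high in 1 gene are high in the others, with an r of 0.764 to 0.906 over T1 to T6.

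At the matching hours of the next cycle, after the light cycle had been taken away, the changes were smaller. The fitted log2 difference of T10 to T12 minus T7 to T9 in LD was 0.72 ± 0.27 for NVE8107 and -1.06 ± 0.46 for NVE14677, and was -0.48 ± 0.35 for NVE8679, -0.51 ± 0.49 for NVE8085, -0.46 ± 0.24 for NVE5408, -0.38 ± 0.29 for NVE4116 and 0.73 ± 0.24 for NVE1728. The sign was that of the first day in 5 of 7, and the size was smaller in 7 of 7, with medians of 1.96 and 0.513 beside medians of 0.188 and 0.310 over all tested genes. The genes had been chosen on their first-day change. Of the 7, edgeR called NVE8107 (adjusted p = 0.0485), higher as on the first day, and NVE1728 (adjusted p = 0.0213), higher where it had been lower on the first day. The same contrast called 19.7% of all tested genes, 5.94% higher and 13.8% lower, and it was not repeated under the alternatives.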

How the data were processed

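Whole-animal RNA was sequenced from 136 libraries, and the authors deposited 1 table of whole-number counts for 24384 genes, not normalized. Per the labels' protocols, RNA came from animals kept in RNAlater and extracted with an Ambion kit. Bowtie2 is named per the submitters' processing notes, with no version, and the genome is that of Putnam et al. per the labels. Counting software, strand handling and annotation were not given in the sources used here. Overlapping or near-identical genes may therefore share reads. Columns were matched to samples by the S number in the titles, and 0 columns were left over.

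Counts were fitted with edgeR 4.0.16 in R 4.3.3 (filterByExpr, 10257 genes kept; TMM; 34 group means; 102 residual degrees of freedom; glmQLFit with a trended dispersion, legacy form). All comparisons are contrasts of that fit, adjusted by Benjamini-Hochberg over all tested genes. They are over T1 to T6, except that of T10 to T12 minus T7 to T9 in LD. The 7 genes, the contrasts and the programmes were chosen with earlier results of these data known. Named genes were, per comparison, the 2 largest rises and 2 largest falls (or up to 4 by span over time points, and 1 each way per step) among called genes whose average log2 CPM reached 2. Log2 CPM used a prior count of 2, and permutation tests were two-sided. Values leave out libraries with totals under 179339, a limit relative to the median total of 538017. Programmes A and B are clusters (average linkage, 1 minus correlation, below 0.5) of the 400 genes most variable in log2 CPM. In a library with no read of a gene, up to 3 counts are allowed by counting error.

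Replicate letters were checked as pairs: deviations from group means of same-letter libraries had a mean correlation of 0.00313 in LD and 0.0103 in DD, so no block was used. The scripts were also tested on simulated data, with gene levels and dispersions taken from the fit of the real data. Alternatives were DESeq2 1.42.0, limma-voom (limma 3.58.1), other scalings, filters and fits, and leaving out replicates, time points and libraries.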

Additional observations from a re-analysis of the deposited data

Results flagged for a closer look

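The half-day change of NVE8107 differed between the arms, by 2.93 log2 units, and so did its profile over the 6 points (edgeR adjusted p = 3.46e-05) and that of NVE4116 (edgeR adjusted p = 0.0414). Single libraries stood apart from the other 3, relative to the range of their group, in 17 of 90 groups of 4 examined, gene levels and programme scores together. More of them stood apart in a programme score than in a gene level, though fewer groups of scores were examined. For normally distributed values chance gives about 4.5 (1 in 20) of these. Among the 7 genes these were NVE1728 at 17.6 CPM in LD T3 replicate C (others 29.7 to 31.3), NVE4116 at 0 CPM in LD T4 replicate D (others 9.13 to 10.1), NVE8085 at 55.8 CPM in LD T1 replicate A (others 128.6 to 141.4) and NVE5408 at 138.3 CPM in LD T6 replicate D (others 103.5 to 107.5). DD T5 replicate D was low in both NVE5408, at 44.2 CPM (others 109.3 to 123.6), and NVE8679, at 12.1 CPM (others 33.5 to 38.2).

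The programme scores are high in few libraries, so the rate of 1 in 20 need not hold for them. The programme A score stood apart in DD T5 replicate B (5.51), LD T5 replicate A (4.65), LD T1 replicate B (4.24), LD T2 replicate A (2.48) and DD T2 replicate B (2.45). The gap was small in LD T2, with the others at 2.34 to 2.35, and in DD T2, with the others at 2.33 to 2.35. The programme B score stood apart in LD T6 replicate D (7.56), DD T2 replicate B (6.78), LD T2 replicate A (5.81), DD T5 replicate A (5.21), DD T3 replicate D (3.66) and LD T3 replicate D (3.07).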

How the results depend on the processing

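The LD calls of NVE8107, NVE14677, NVE8679 and NVE5408 held in every alternative that tested them. A filter of 10 counts in 68 libraries left NVE8107, NVE14677, NVE8085 and NVE4116 untested. Counts of called genes that moved by over 1.5 times were as follows, with "profile" for the difference between arms over 6 points; except where fewer genes or samples were fitted, the cause was not tested. DESeq2 gave 11 genes for the LD half-day change, 1 for DD, 23 for LD over 6 points and 4 for steps. Limma-voom gave 2 for the arm difference, 12 for LD over 6 points, 0 within T1 to T3 and 2 within T4 to T6. edgeR's newer quasi-likelihood fit gave 12 for the LD half-day change, 354 over 6 points, 2 within T1 to T3 and about 2.4e+02 within T4 to T6. RLE factors and library size alone each gave 1 for the profile and 1 for steps. No filter gave 1, 1 and 0 for profile, steps and T4 to T6. The filter of 10 counts gave 2 for the LD half-day change, 5 over 6 points and 0 for the arm difference, profile, steps and both within-part tests. Only T1 to T6 in the fit gave 3 for the arm difference, 0 for DD over 6 points, 1 for the profile and 75 within T4 to T6. Without shallow libraries the arm difference gave 2 and the profile 1. Groups by part of the day gave 18 for LD. Removing all libraries past the midpoint of programme A, LD gave 12 in both tests and the profile 1. The scores as covariates gave 21 over 6 points, 3 within each part and 10 steps. Leaving out T2 gave 2 for DD, leaving out T3 gave 2 for the arm difference, and leaving out T4 gave 25 for LD, 2 for DD and 2 for the arm difference. Leaving out a replicate letter or LD T6 replicate B gave 4 to 8 for the LD half-day change, 1 to 2 for the arm difference, 11 to 47 for LD and 0 to 3 for DD over 6 points, 0 to 2 for the profile, 0 to 1 within T1 to T3, 0 to 2 within T4 to T6 and 0 to 2 for steps.

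The letters share only a number (same-letter correlations of deviations ran from -0.208 to 0.305 in LD). With the replicate block 67 genes were called in LD over 6 points and 1 in the profile, and the LD half-day count was 8.

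DD changes of the 7 genes, none called, turned sign in some fits. NVE8107 was at -0.021 without T2, -0.00032 without T3, -0.23 without T5 and -0.067 without T6, and ran from -0.14 to 0.23 without a replicate. NVE8085 was at 0.16 without shallow libraries, 0.20 without T3 and 0.15 without T6, and ran from -0.56 to 0.13 without a replicate. NVE5408 was at 0.0025 without T3 and 0.025 without T6, and NVE8679 at 0.027 without T6. Depth limits low genes most: NVE8107 had 1 to 7 reads a library over LD T1 to T3.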
